A study of Mus musculus with 9 samples.

Results

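The blood of mice with polytrauma and an added hemorrhagic shock (PT + HS) was compared with the blood of mice with polytrauma alone (PT). The comparison rests on 6 of the 9 arrays of the study, 3 per injured group and 1 animal per array, chosen by their treatment label. The other 3 arrays are of healthy animals (Ctrl) and are used only to share the estimate of the spread and to give a level without injury. All animals were C57BL/6 mice of 8 to 9 weeks with a mean weight of 25 g. In PT mice the head, the thorax and a thigh were injured under anesthesia: blunt force to the chest, a brain injury and a broken femur under intact skin. PT + HS mice had the same injuries and were bled from 1 h after the trauma to a mean arterial pressure of 30 mmHg, which was held for 60 min. They then received balanced electrolyte solution at 4 times the drawn volume over 30 min, and norepinephrine where the pressure required it. Both injured groups were kept under sevoflurane, received buprenorphine and were sampled by cardiac puncture 4 h after the trauma. Ctrl mice were sampled as soon as they were under anesthesia. Blood loss, dilution by fluid and catecholamine were given together, so that they cannot be told apart in a difference between PT + HS and PT.

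Hemorrhagic shock is a loss of blood volume that leaves tissues short of oxygen. The body answers with catecholamines and glucocorticoids, which move leukocytes between vessel wall, marrow and blood within hours. Neutrophils and monocytes are the mobile cells of innate immunity, and both rely on glycolysis for energy. Low oxygen stabilizes the hypoxia-inducible factors, transcription factors that raise glycolytic enzymes and survival genes. In such a mixture a lower number of cells of a type and less RNA of a gene per cell cannot be told apart.

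The values are log2 expression values, so that a difference of 1 is a change of 2-fold. Of the arrays, PT replicate 2 stood apart, with correlations of 0.912 to 0.949 to the others over all probe sets, whereas the other 8 correlated among themselves at 0.961 or more. Its values were also less spread, with an SD over probe sets of 1.59 against 1.71 to 1.80 on the other arrays, and PT replicate 3 had the widest spread. Results are therefore given with all arrays and, for calls and list medians, without PT replicate 2. Markers of blood cells were measured on every array, among them S100a9 of neutrophils (10.55 to 13.04), Cd3e of T cells (7.49 to 9.45), Pf4 of platelets (11.4 to 11.8) and the heme enzyme Alas2 of red cell precursors (14.2 to 14.4). Albumin, which marks liver, had 3.48 to 3.98, and Snap25, which marks neurons, 2.22 to 2.67. Other markers of liver and brain were higher, with 5.95 to 6.8 for Ttr of liver and 6.19 to 7.79 for Mbp of brain. They were so in uninjured Ctrl animals too, with 6.23, 6.27 and 5.95 for Ttr and 7.44, 7.48 and 7.79 for Mbp. The source of this RNA was not tested.

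No gene differed between PT + HS and PT after adjustment for the 18194 genes tested. A gene is called here at an unadjusted p under 0.05 from limma and a change of at least 1.5-fold, whichever its adjusted p. At these thresholds 204 genes (1.12%) were called, 132 higher (0.726%) and 72 lower (0.396%) in PT + HS. By limma 0 genes had an adjusted p under 0.05 (0% of those tested), where the smallest adjusted p was 1, beside 522 genes with an unadjusted p under 0.05 (2.87%). The methods' t-test called 76 genes at the thresholds and 0 after adjustment. The groups did not overlap in 1304 genes (7.17%), 656 higher (3.61%) and 648 lower (3.56%), and in 4318 (23.7%) without PT replicate 2. With fewer PT arrays more genes separate by order alone, so that these shares cannot be compared. Of the called genes 13 were past 2-fold, 12 of them higher, and the largest difference was 2.35-fold, for Zmiz1.

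The number and the direction of the calls depended on single animals. Without PT replicate 2 limma called 855 genes (4.7%), 252 higher (1.39%) and 603 lower (3.31%), again with 0 at an adjusted p under 0.05 (smallest 0.271, 1344 genes with an unadjusted p under 0.05). Where quantile normalization was repeated as well, a setting chosen after the data had been seen, the split was 338 higher and 392 lower. Without PT replicate 1 there were 506 calls, without PT replicate 3 there were 623 and without PT + HS replicate 2 there were 335. Of the 204 genes, 109 were also called without PT replicate 2, 74 higher and 35 lower, and none of them in the opposite direction. Of the 603 genes called lower without PT replicate 2, that array was the lowest of the 3 PT arrays in 583. PT replicate 3 was the highest of the 6 arrays in 502 of them. Over all 18194 genes these counts were 6830 and 4015.

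**Figure D1:**
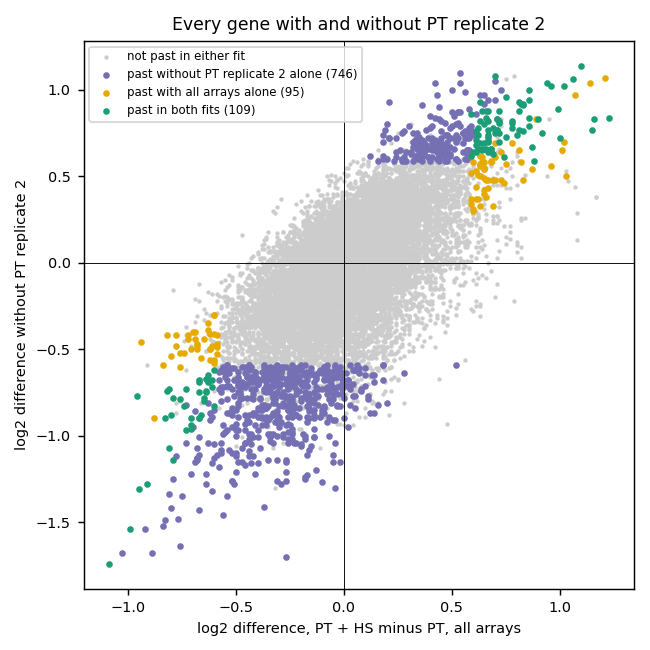
Log2 difference between PT + HS and PT for each of 18194 genes, with all arrays on the horizontal axis and without PT replicate 2 on the vertical axis. The 109 genes called in both fits lie in the upper right and lower left corners, and most of the 746 called only without PT replicate 2 lie below 0 on the vertical axis.

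Of the 204 genes, 30 (0.165%) were called in the same direction with any one of the 6 arrays left out, 22 higher (0.121%) and 8 lower (0.044%). Another 27 were called in 5 of these 6 fits and 13 in only 1. Among the 22 were the myeloid factor Cebpa, the inhibitory receptors Cd300a and Pilra, the glycolytic enzyme Hk2 and the adhesion molecule Esam. The set was formed after the fit and is no independent evidence. The groups did not overlap in 21 of the 22 and in 7 of the 8, the exceptions being Acta2 and Hyal2.

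Among the regulators of transcription, Cebpa encodes a factor that directs progenitors into the granulocyte and monocyte lineages. Its values were 6.00, 5.12 and 6.28 in PT and 7.30, 6.61 and 6.98 in PT + HS. All 3 animals with shock lay above all 3 without, by 1.16 (standard error 0.33, 3 animals per group), and by 0.83 without PT replicate 2. Zmiz1, a coactivator of several transcription factors, had 6.13, 4.76 and 5.76 in PT and 6.62, 6.81 and 6.92 in PT + HS, a difference of 1.23 (standard error 0.32). PT replicate 2 was the lowest of the 6, and without it the difference was 0.84. Klf10, a zinc finger factor induced by TGF-beta, had 3.39, 3.08 and 3.0 in PT and 4.14, 3.84 and 3.92 in PT + HS. Its order was the same in every animal, with PT lowest, PT + HS between and Ctrl highest at a mean of 4.59. The difference was 0.81 (standard error 0.17), and 0.77 without PT replicate 2.

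Several signaling proteins were higher. Tab1 is the adaptor that activates the kinase TAK1 below toll-like and interleukin-1 receptors. Its values in PT were 4.02, 4.02 and 4.01, in PT + HS 4.93, 5.11 and 5.2, and in Ctrl 4.95, 4.59 and 4.78. The PT animals were almost equal and all below the others, so that the difference of 1.06 (standard error 0.16) had the smallest unadjusted p of all genes, 6.11e-05 from limma, with an adjusted p of 1. It was 1.06 without PT replicate 2 as well. Rgs2 shortens signals of G protein-coupled receptors and is induced through cyclic AMP. It had 7.74, 7.16 and 7.59 in PT and 8.85, 8.00 and 8.40 in PT + HS, higher in all 3 shock animals by 0.92 (standard error 0.24), and by 0.75 without PT replicate 2. Ptpro, a receptor tyrosine phosphatase, had 3.83, 4.24 and 4.26 in PT and 5.32, 5.22 and 4.66 in PT + HS. The difference was 0.96 (standard error 0.24), and 1.02 without PT replicate 2.

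Receptors of innate immunity formed another part of these genes. Cd300a is a receptor of phosphatidylserine that inhibits myeloid cells. Its values were 7.15, 5.65 and 6.43 in PT and 7.99, 7.36 and 7.34 in PT + HS, a difference of 1.15 (standard error 0.35) that was 0.77 without PT replicate 2. Pilra, a paired inhibitory receptor of myeloid cells, had 5.63, 5.34 and 5.42 in PT and 6.6, 5.94 and 6.24 in PT + HS, higher by 0.80 (standard error 0.25), and by 0.74 without PT replicate 2. Naip2 encodes a sensor of bacterial secretion systems that joins the NLRC4 inflammasome. It had 4.34, 4.29 and 3.99 in PT and 5.52, 5.03 and 5.37 in PT + HS, and the 3 shock animals were above all others including Ctrl (4.77, 3.39 and 3.43). The difference was 1.10 (standard error 0.34) and 1.14 without PT replicate 2, but Naip genes are near-identical copies, so that the assignment to this member is uncertain. Tnfrsf11a, the receptor RANK of osteoclast precursors and dendritic cells, was higher by 0.72 (standard error 0.22) and Gzmn, of the granzyme family with its similar members, by 0.71 (standard error 0.21), against 0.88 and 0.77 without PT replicate 2.

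Other genes of this set belong to metabolism, platelets and vessels. Hk2, the inducible hexokinase that starts glycolysis, had 5.11, 4.39 and 4.28 in PT and 5.82, 5.36 and 5.56 in PT + HS, a difference of 0.99 (standard error 0.26) with no overlap, which was 0.89 without PT replicate 2. Esam is an adhesion molecule of endothelial cells and platelets. It had 7.07, 7.12 and 7.09 in PT, 7.75, 7.75 and 7.69 in PT + HS and a mean of 7.71 in Ctrl, so that the PT animals were alike and lay below both other groups. The difference between PT + HS and PT was 0.64 (standard error 0.14), and 0.65 without PT replicate 2. Gnaz, a G protein subunit found in platelets, was higher by 0.75 (standard error 0.18), Mfsd2b, the sphingosine-1-phosphate exporter of red cells and platelets, by 0.88 (standard error 0.27), and the smooth muscle actin Acta2 by 0.87 (standard error 0.28). In the fit without PT replicate 2 they differed by 0.73, 0.59 and 0.67. Hsd3b7, an enzyme of bile acid synthesis, was higher by 0.78 and Extl2, an enzyme of heparan sulfate synthesis, by 0.83 (0.78 and 0.76 without PT replicate 2). Ildr2 and Clstn2 were higher by 0.86 and 0.83, and the unnamed transcripts E130119H09Rik and Hmga2-ps1 by 0.83 and 0.68. These 4 differed by 0.84, 0.91, 0.92 and 0.66 without that array.

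The 8 genes that were lower in each of these fits included Hyal2, Hrob and Ube2v2. Hyal2, a hyaluronidase anchored to membranes, had 5.64, 5.92 and 5.08 in PT and 5.23, 4.16 and 4.39 in PT + HS, a difference of -0.96 (standard error 0.30) that was -0.77 without PT replicate 2. PT + HS replicate 1 lay within the PT values. Hrob, a helper of the MCM8 and MCM9 helicase in recombination repair, had 6.41, 6.11 and 6.00 in PT and 5.25, 5.51 and 5.50 in PT + HS, lower in all 3 shock animals, with a difference of -0.76 (standard error 0.22) and of -0.79 without PT replicate 2. Ube2v2, a partner of the ubiquitin enzyme UBC13 in DNA damage tolerance, differed by -0.74, the BRCA2-binding protein Hsf2bp by -0.81 and Gtf3c4, a subunit of the RNA polymerase III factor TFIIIC, by -0.71 (standard errors 0.22, 0.26 and 0.23). The zinc finger protein Zfp202 differed by -0.83, Tex21 by -0.82 and C030034I22Rik by -0.80. In the fit without PT replicate 2 the differences of Ube2v2, Hsf2bp, Gtf3c4, Zfp202, Tex21 and C030034I22Rik lay between -0.94 and -0.73.

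**Figure D2:**
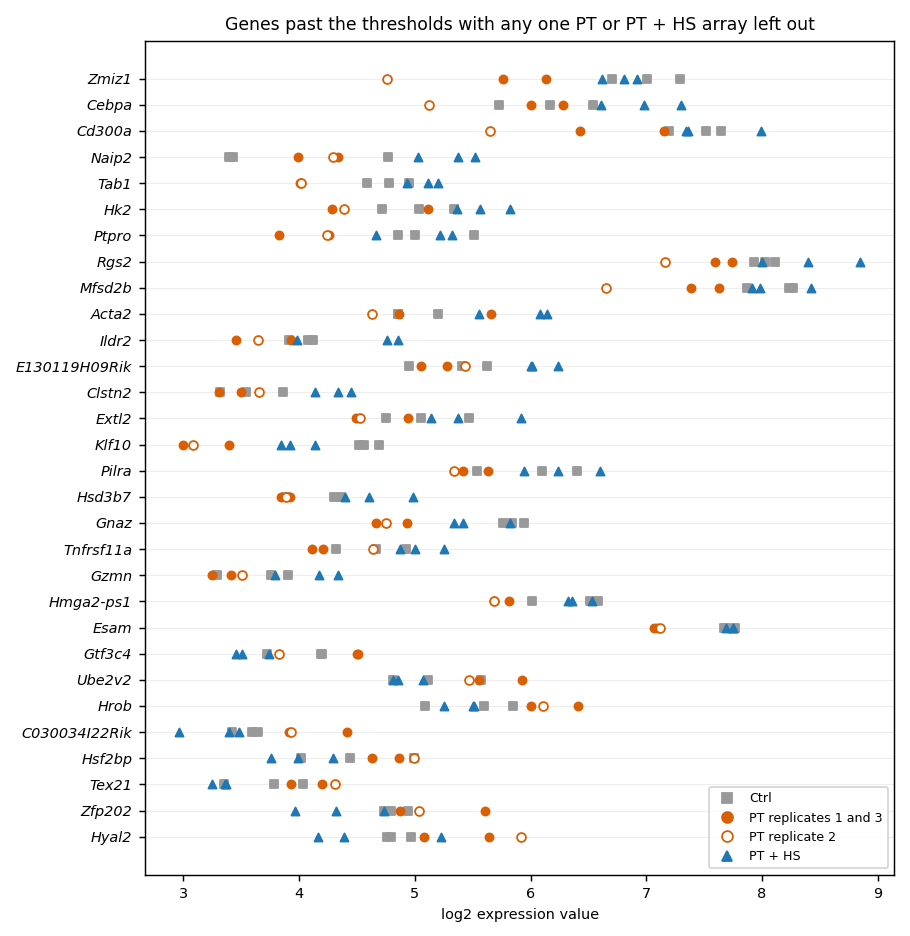
Log2 expression value of the 30 genes called with any one of the 6 arrays left out, with 1 point per animal, grey squares for Ctrl, circles for PT (open for replicate 2) and triangles for PT + HS. The triangles lie to the right of all circles in 21 of the 22 upper genes and to the left in 7 of the 8 lower ones.

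Of the 132 higher genes 114 had a PT mean below Ctrl, and of the 72 lower ones 69 a PT mean above Ctrl. Over all genes tested the PT mean was below Ctrl in 8956 and above in 8933. Both differences use the same PT arrays, and a PT value that is low by chance moves both, so that nothing is read from these counts. In PT + HS the mean was nearer to Ctrl than that of PT in 72 of the 132 and 48 of the 72, and in 9196 of all 18194 genes. PT replicate 2 was the lowest of the 6 arrays in 55 of the 132 and PT replicate 3 in 52. In the 72 lower genes PT replicate 2 was the highest array in 35 and PT replicate 3 in 23. The mean level over all 9 arrays lay below that of the median gene (4.29) in 26 of the 72 lower genes and in 32 of the 132 higher ones.

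Among the 12 genes per direction with the largest differences and no overlap, 5 higher and 7 lower ones were not among those 30. They were called in 2 to 5 of the 6 fits with 1 array left out. Cd300lb is described with its family. Gzma, a granule protease of natural killer (NK) and cytotoxic T cells, had 8.27, 6.66 and 8.20 in PT and 8.36, 9.06 and 8.79 in PT + HS, a difference of 1.03 (standard error 0.39) that was 0.50 without PT replicate 2. It was not called in that fit, nor without PT + HS replicates 2 or 3. Batf3, a transcription factor of cross-presenting dendritic cells, was higher by 1.02 (standard error 0.33) with all arrays and without PT replicate 2, and Atp2c1, a calcium pump of the Golgi, by 1.0 and 0.72. Both lost their call without PT + HS replicate 1. Lpl, the lipase of circulating triglycerides, had 3.61, 3.69 and 3.15 in PT and 5.57, 3.94 and 3.77 in PT + HS. Of the 6 arrays PT + HS replicate 1 alone was above 4, and the difference of 0.94 (standard error 0.41) was 0.37 and not called without it. Among the lower genes, St8sia1, a sialyltransferase of gangliosides, had 5.39, 4.83 and 6.48 in PT and 4.73, 4.58 and 4.67 in PT + HS, a difference of -0.91 (standard error 0.36) that was -0.45 and not called without PT replicate 3. Zswim5 differed by -0.94, Zdhhc15, a palmitoyl transferase, by -0.80, Nvl, an ATPase of ribosome assembly, by -0.79, Asap3 by -0.78, Lhfpl3 by -0.76 and B230217O12Rik by -0.84. Zswim5, Zdhhc15, Asap3, Lhfpl3 and B230217O12Rik were not called without PT replicate 2, and Nvl was not without PT + HS replicate 2.

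For genes measured by several probe sets, agreement between them was uneven. Of the 204 called genes 120 had several probe sets, and all probe sets pointed the same way in 63. Of the 30 genes called in every such fit 16 had several, and they pointed the same way in 6. In 10 genes at least 2 probe sets passed the thresholds in the same direction, 9 of them higher, a count made after the values had been seen. Ndrg1, a gene induced by low oxygen, passed with 4 of its 5 probe sets, with differences of 0.28 to 0.70 over all of them. Rgs2 passed with 2 of 4 (0.40 to 0.97), the monocyte factor Klf4 with 2 of 2 (0.67 and 0.86) and Ptpro with 2 of 2 (0.84 and 0.96). The others were Abcd2, a peroxisomal transporter of very long fatty acids, Prkab2, a subunit of the energy sensor AMPK, Prr5l, a subunit of mTOR complex 2, the ubiquitin ligase Rnf19b, Zfand3, and among the lower genes Orc2, a subunit of the origin recognition complex. Prkab2 differed by 0.67, Prr5l by 0.61 and Orc2 by -0.64. By contrast, the remaining 4 probe sets of Zmiz1 gave -0.51 to 0.21, the other probe set of Cd300a -0.30, that of Mfsd2b -0.12 and that of Tab1 0.01, each of them at a lower level than the probe set used.

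**Figure D3:**
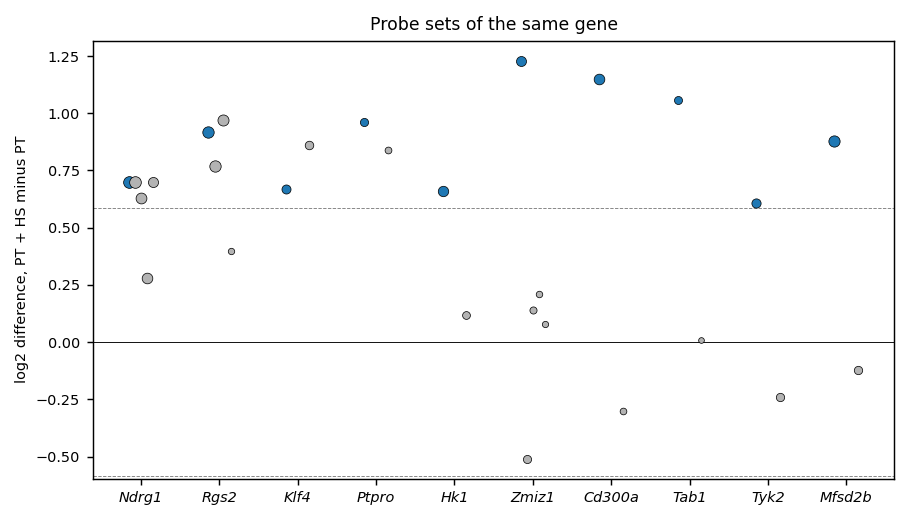
Log2 difference between PT + HS and PT for each probe set of 10 genes, with the probe set used in blue, the others in grey, larger points for a higher mean level and dashed lines at a change of 1.5-fold. Probe sets of Ndrg1, Rgs2, Klf4 and Ptpro all lie above 0, whereas those of Zmiz1 range from -0.51 to 1.23.

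Of 18 measured glycolysis genes 3 were called, Hk1, Hk2 and Pfkfb4, all higher, and 17 had a positive difference. Over all genes 0.726% were called higher and 49.3% had a positive difference. Pfkfb4, which raises the activator of phosphofructokinase, had 6.99, 6.38 and 6.84 in PT and 7.56, 7.07 and 7.81 in PT + HS, all above PT, by 0.75 (standard error 0.23). It was not called without PT replicate 2 or PT + HS replicate 3. Hk1, the constitutive hexokinase, had 6.69, 6.18 and 6.77 in PT and 6.76, 7.29 and 7.58 in PT + HS, with PT + HS replicate 1 inside the PT range and a difference of 0.66 (standard error 0.24) that was called in 3 of the 6 fits. The triose phosphate isomerase Tpi1 did not overlap either (difference 0.52), and Pfkfb3 differed by 0.57. The list median was 0.30 against -0.00 over all genes, and 0.18 without PT replicate 2, where only Hk2 was called. With 1 of the 6 arrays left out the median lay between 0.18 and 0.48, the latter without PT replicate 1. It was 0.04 when limma weighted each array by its deviation from the group means. The weights of PT replicates 1, 2 and 3 were 4.96, 0.227 and 0.521. Wherever array weights are used, the PT group thus rests mostly on replicate 1.

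Of 21 measured genes of the hypoxia response 2 were called, both higher, where 0.726% of all genes were. Ndrg1 had 8.53, 7.48 and 7.80 in PT and 8.57, 8.72 and 8.63 in PT + HS, so that the 3 shock animals were alike and only just above PT replicate 1. It differed by 0.70 (standard error 0.30) and by 0.48 without PT replicate 2, and with the probe set used it was called only with all arrays or without PT replicate 1. Another probe set of nearly the same level (8.29 against 8.37) differed by 0.70 and by 0.68 without PT replicate 2 and passed in both. Plin2, which coats lipid droplets and is induced by low oxygen and by fatty acids, had 7.42, 7.14 and 6.71 in PT and 8.42, 7.26 and 7.94 in PT + HS, a difference of 0.78 (standard error 0.30) that was called in 3 of the 6 fits with 1 array left out. Bnip3, a mitochondrial protein of mitophagy, had 6.01, 4.75 and 6.02 in PT and 6.39, 6.27 and 6.19 in PT + HS, with no overlap and a difference of 0.69 that was 0.27 without PT replicate 2 and not called in either. Adm, the vasodilator adrenomedullin, was called only without PT replicate 2 (0.66). The list had 14 positive and 7 negative differences (49.3% of all genes were positive), with a median of 0.20 and of 0.10 without PT replicate 2, a range of 0.10 to 0.28 with 1 array left out, and 0.10 with array weights.

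Since the hypoxia-inducible factors bind DNA at a short core, ACGTG or GCGTG, the 250 bases before the transcription start of the called glycolysis and hypoxia genes are shown for Hk2, Pfkfb4 and Plin2. The sequences are RefSeq promoters of build GRCm38.p6, 5′ to 3′ on the strand of the gene, and capitals mark the core on either strand, with overlapping matches joined.
Hk2 (chr6:82774455-82774704, minus strand): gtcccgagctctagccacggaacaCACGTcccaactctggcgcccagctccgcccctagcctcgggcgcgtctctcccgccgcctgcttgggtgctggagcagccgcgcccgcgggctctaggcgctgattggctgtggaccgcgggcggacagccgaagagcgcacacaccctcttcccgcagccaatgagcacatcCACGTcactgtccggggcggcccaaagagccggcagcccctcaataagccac
Pfkfb4 (chr9:108991652-108991901, plus strand): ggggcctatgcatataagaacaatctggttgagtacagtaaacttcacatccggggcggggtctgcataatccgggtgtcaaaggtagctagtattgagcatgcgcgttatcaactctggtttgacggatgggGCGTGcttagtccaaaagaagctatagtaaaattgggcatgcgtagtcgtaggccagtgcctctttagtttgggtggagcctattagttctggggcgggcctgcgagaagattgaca
Plin2 (chr4:86670060-86670309, minus strand): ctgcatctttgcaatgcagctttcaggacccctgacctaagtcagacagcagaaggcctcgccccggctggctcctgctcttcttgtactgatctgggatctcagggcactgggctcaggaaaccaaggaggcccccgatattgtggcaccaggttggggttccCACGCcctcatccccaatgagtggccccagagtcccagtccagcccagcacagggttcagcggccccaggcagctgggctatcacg
Hk2 held 2 matches and Pfkfb4 and Plin2 held 1 each. Of the 2 Hk1 promoters 1 held 3 matches and the other 0. Over all 32851 promoters of the same length 38.6% held at least 1 match and 16.7% at least 2, so that a match is common. Ndrg1 was not among the promoters used here.

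Of 18 measured monocyte markers 18 had a positive difference and 3 were called higher, Nr4a1, Klf4 and Treml4, beside 49.3% and 0.726% of all genes. Nr4a1 is an orphan nuclear receptor on which patrolling monocytes depend. It had 6.47, 6.23 and 5.15 in PT and 7.33, 6.66 and 6.42 in PT + HS, a difference of 0.86 (standard error 0.35), where PT + HS replicate 3 lay within PT. Treml4, a receptor of the same monocytes, had 6.16, 5.70 and 5.08 against 6.87, 6.28 and 5.95, and Klf4 5.38, 5.10 and 4.46 against 5.74, 6.06 and 5.16 (differences 0.72 and 0.67). In all 3 genes PT replicate 3 was the lowest array, and without it they differed by 0.41 to 0.46 and were not called. They were not called without PT + HS replicates 1 or 2 either. The median of the list was 0.35 and 0.31 without PT replicate 2, where the M-CSF receptor Csf1r (0.83), the fractalkine receptor Cx3cr1 (0.74) and Ace (0.87) were called as well (1.39% of all genes were called higher in that fit), it was 0.62 without PT replicate 1 and 0.18 with array weights.

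Of 19 measured NK and cytotoxic genes 18 had a positive difference and 2 were called higher, Gzma and the chemokine Ccl3, again beside 49.3% and 0.726% of all genes. Ccl3 had 3.45, 3.20 and 3.42 in PT and 3.66, 4.22 and 3.97 in PT + HS, a difference of 0.59 (standard error 0.19) that was called in 3 of the 6 fits with 1 array left out. In 6 of the 19 the groups did not overlap, all of them higher, among them the chemokine Ccl5, the transcription factors Tbx21 and Eomes and the sphingosine-1-phosphate receptor S1pr5. Over all genes 3.61% were higher without overlap. Tbx21 and Eomes differed by only 0.27 and 0.21 and were not called. On all PT and PT + HS arrays S1pr5, Tbx21 and Ccl3 lay below the level of the median gene (4.29). S1pr5, which lets NK cells leave marrow and lymph nodes, had 3.25, 2.90 and 2.86 in PT and 3.58, 3.38 and 3.57 in PT + HS (difference 0.50). The list median was 0.34, and 0.26 without PT replicate 2, where 14 differences were positive, 5 negative and no member was called higher. In the fit without PT replicate 2 the receptor Klrd1 was called lower (-0.82). With array weights the median was 0.14.

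Platelet genes made up the only list of 29 in which the array means of PT + HS all lay above those of PT. The mean level of 14 measured genes was 9.39, 9.14 and 9.38 in PT, 9.63, 9.49 and 9.77 in PT + HS and 9.82, 9.86 and 9.53 in Ctrl. All 14 had a positive difference with and without PT replicate 2, where 49.3% and 49.6% of all genes did. The list median was 0.32 with all arrays and 0.20 without PT replicate 2. None was called. The collagen receptor Gp6 had 6.19, 6.07 and 6.2 in PT and 6.63, 6.92 and 6.53 in PT + HS, a difference of 0.54 (standard error 0.17) that is under 1.5-fold. Esam, Gnaz and Mfsd2b, described above, were higher together with these genes, and the part of platelet RNA in their differences was not tested.

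Inhibitory and activating paired receptors held 6 calls with all arrays, 5 higher and 1 lower of 16 measured, beside 1.12% over all genes. The family members Cd300a, Cd300lb and Cd300ld were higher by 1.15, 1.01 and 0.96 (standard errors 0.35, 0.36 and 0.42). Cd300lb, an activating receptor of myeloid cells, had 6.84, 5.74 and 6.81 in PT and 7.68, 6.97 and 7.79 in PT + HS. Cd300ld had 6.64, 5.46 and 6.71 against 7.50, 6.38 and 7.82 and overlapped through PT + HS replicate 2. Pilra and Pilrb1, the inhibitory and the activating member of a pair, were higher by 0.80 and 1.07 (standard errors 0.25 and 0.41). The sialic acid receptor Siglece, which inhibits myeloid cells, was lower, with 5.41, 5.73 and 4.92 in PT and 4.81, 4.59 and 4.85 in PT + HS (difference -0.60, standard error 0.21). Without PT replicate 2 only Cd300a and Pilra were called, beside 4.7% of all genes, and the list median moved from 0.46 to 0.37, whereas with array weights it was 0.05. Cd300ld and Pilrb1 belong to families of similar sequence and are uncertain.

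Neutrophil genes and glucocorticoid targets gave no call, where 1.12% of all genes were called. Of 22 measured neutrophil genes 20 had a positive difference, beside 49.3% of all genes, with a median of 0.45. Mmp9, a gelatinase of their granules, had 8.50, 6.96 and 7.63 in PT and 8.90, 7.39 and 8.96 in PT + HS (difference 0.72, standard error 0.46). The complement receptor C5ar1 had 4.71, 4.87 and 5.18 against 5.56, 5.11 and 5.58, a difference of 0.50 (standard error 0.19). The median of the neutrophil list was 0.11 without PT replicate 2 and -0.09 with array weights. The 18 glucocorticoid genes had a median of 0.36 and of 0.01 without that array. Fkbp5, a chaperone of the glucocorticoid receptor, had 8.50, 6.72 and 7.56 in PT, 8.05, 8.16 and 8.26 in PT + HS and a mean of 5.92 in Ctrl. The shock animals lay inside the PT range.

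Of 16 measured factors and receptors of myeloid differentiation Cebpa and Klf4 were called, both higher. Over all genes 0.726% were called higher with all arrays, which holds as the background for each list of this paragraph. The median was 0.36 with all arrays, 0.10 without PT replicate 2 and -0.04 with array weights. In toll-like receptor and NF-kB signaling 1 of 32 genes was called, Tab1, with a median of 0.11 that was -0.07 without PT replicate 2. In that fit, where 3.31% of all genes were called lower, 4 of these genes were: Tlr1 (-0.92), which pairs with Tlr2, the kinase Ikbkb (-0.87) and the feedback inhibitors Nfkbie (-0.71) and Tnfaip3 (-0.61). The other probe sets of Ikbkb gave -0.57 to 0.38 in the same fit, and those of Nfkbie and Tnfaip3 -0.16 and 0.12. All of these lay at lower levels than the probe sets used. Of 19 genes of inflammasomes and interleukin-1 only Naip2 was called, and of 29 cytokines and chemokines only Ccl3. Of 27 cytokine receptor and JAK-STAT genes 3 were called higher. Tyk2, a kinase of interferon receptors, had 5.2, 4.85 and 5.53 in PT and 5.76, 5.96 and 5.70 in PT + HS (difference 0.61), the TNF receptor Tnfrsf1b 7.17, 6.43 and 6.46 against 7.25, 7.33 and 7.38 (0.63) and the interferon receptor Ifnar1 4.35, 4.99 and 4.65 against 5.68, 5.08 and 5.09 (0.62). None of the 3 overlapped between the groups. Of the 132 genes called higher 92 did not overlap, beside 3.61% of all genes that were higher without overlap. The lack of overlap is therefore no further evidence for these 3. The second probe set of Tyk2 gave -0.24, however. In the fit without PT replicate 2 Tyk2 and Tnfrsf1b were not called, Ifnar1 was called higher and Ifngr1 (-0.80) and Stat4 (-0.61) lower.

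In genes that answer to cyclic AMP and in immediate early genes the calls were Rgs2 and Nr4a1, both higher, beside 0.726% of all genes. The list medians were 0.08 over 15 and 0.18 over 22 genes, and 0.02 and 0.06 without PT replicate 2. The promoters of Nr4a1 and Rgs2 are shown with the core of the cyclic AMP response element, TGACG, on either strand in capitals. This motif was chosen after the values had been seen.
Nr4a1 (chr15:101266596-101266845, plus strand): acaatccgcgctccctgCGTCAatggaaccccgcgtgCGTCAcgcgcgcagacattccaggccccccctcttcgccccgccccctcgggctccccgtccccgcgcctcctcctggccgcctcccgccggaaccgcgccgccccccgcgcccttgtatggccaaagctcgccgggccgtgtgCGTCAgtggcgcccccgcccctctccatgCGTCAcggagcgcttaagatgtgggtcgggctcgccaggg
Rgs2 (chr1:144004150-144004399, minus strand): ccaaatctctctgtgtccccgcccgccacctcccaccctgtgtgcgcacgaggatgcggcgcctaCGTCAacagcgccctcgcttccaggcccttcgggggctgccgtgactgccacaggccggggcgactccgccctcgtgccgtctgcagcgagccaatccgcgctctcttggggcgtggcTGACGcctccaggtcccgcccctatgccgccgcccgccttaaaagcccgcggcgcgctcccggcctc
Nr4a1 held 4 matches and Rgs2 2, where 17.8% of all promoters of this length held at least 1 and 3.9% at least 2. A match describes the letters and not a bound factor. Of the 22 immediate early genes 17 had a positive and 5 a negative difference, where 49.3% of all genes were positive. Egr1, a factor of the first minutes after a stimulus, had 4.38, 4.65 and 4.01 in PT and 3.90, 4.27 and 3.89 in PT + HS, a difference of -0.32 that was not called.

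The sign of the T-cell, B-cell and MHC class II medians changed with the PT animal left out. The mean level of 17 measured T-cell genes was 7.24, 6.26 and 8.24 in PT and 6.83, 7.48 and 6.98 in PT + HS, so that the PT animals enclosed those with shock. The median difference was -0.11 with all arrays, -0.81 without PT replicate 2 and 0.34 without PT replicate 3. In the fit without PT replicate 2, 5 T-cell genes were called lower, where 3.31% of all genes were: the receptor chains Cd3d (-0.91), Cd3g (-1.41) and Cd247 (-0.94), the costimulator Cd28 (-1.43) and the homing receptor Ccr7 (-0.96). Cd28 had 6.46, 4.74 and 7.59 in PT and 5.18, 6.28 and 5.33 in PT + HS. The median of 18 B-cell genes was -0.05, -0.57 and 0.49, and that of 9 MHC class II genes 0.19, -0.32 and 0.63, in the same order of fits. No B-cell gene was called in the fits with all arrays or without PT replicate 2, and of the MHC class II genes only H2-Ob without PT replicate 2 (-1.3).

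PT replicate 2 was the lowest of the PT arrays in 25 of the 29 lists. The mean level over all 18194 genes was also lowest on PT replicate 2, with 4.65 against 4.74 and 4.76 on PT replicates 1 and 3. In the monocyte and dendritic cell lists PT replicate 3 was lower. The red cell precursor list had a mean level of 10.5 on PT replicate 2 against 9.93 and 9.73 in the other PT animals and 9.94, 10.1 and 9.87 in PT + HS. The part of the ratio of red cell precursor RNA to leukocyte RNA in these results was tested only as a covariate, with which 295 genes were called (159 higher, 136 lower) and 0 had an adjusted p under 0.05.

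**Figure D4:**
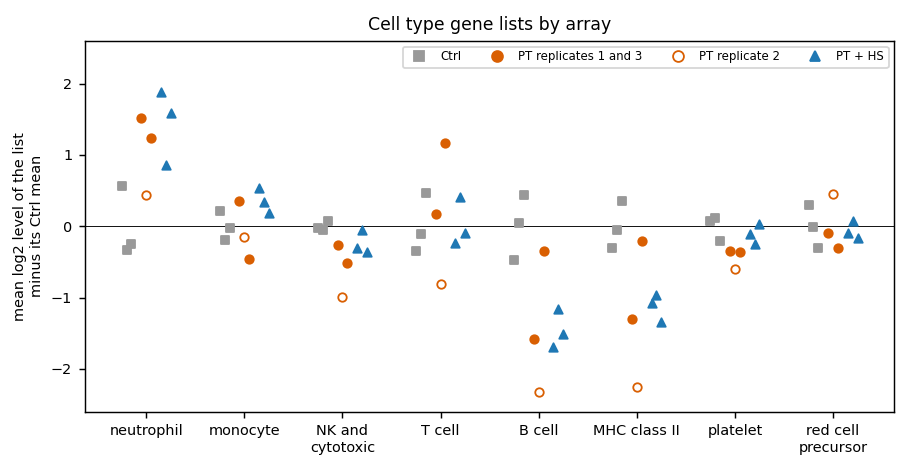
Mean log2 level of 8 gene lists on each array, minus the Ctrl mean of the list, with grey squares for Ctrl, circles for PT (open for replicate 2) and triangles for PT + HS. PT replicate 2 is the lowest PT array for the T-cell, B-cell, MHC class II, NK and neutrophil lists and the highest for red cell precursors, while platelets alone separate the triangles from all circles.

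No call was made with all arrays in the lists of interferon-stimulated genes (17 genes, median 0.04), heat shock and oxidative stress (17, 0.15), the unfolded protein response (16, 0.13), apoptosis (16, 0.07), the cell cycle (19, 0.02), the circadian clock (14, -0.11), the cytosolic ribosome (13, -0.12), the respiratory chain (18, 0.03) and red cell precursors (13, -0.07). In the same order the medians without PT replicate 2 were 0.05, 0.07, -0.03, -0.02, 0.02, -0.11, -0.32, -0.22 and 0.15. In the clock list Dbp, a clock output factor, did not overlap, with 3.73, 3.75 and 4.34 in PT and 3.41, 3.27 and 3.49 in PT + HS, and was called lower in 3 of the 6 fits with 1 array left out, among them that without PT replicate 2 (-0.64), where Nr1d2 was also called lower (-1.27). The second probe set of Dbp, of nearly the same level (3.58 against 3.69), gave 0.13 with all arrays and 0.31 without PT replicate 2. Ribosomal protein genes had negative differences in 13 of 13 without that array, with a median of -0.32 and 1 call (Rps6, -0.91). Genes of the respiratory chain had them in 15 of 18, with a median of -0.22 and 1 call (Ndufb5, -0.79). Over all genes 9174 of 18194 differences were negative without PT replicate 2, and 3.31% of genes were called lower. The remaining calls of the same fit in these lists were Oas3 (0.93), which makes the activator of RNase L, and the amino acid enzyme Asns (0.75), both higher, and Sel1l (-0.82), of protein degradation at the endoplasmic reticulum, and Casp8 (-0.64), the initiator caspase of death receptors, both lower. The other probe sets of Sel1l, all at lower levels, gave -0.17 to 0.4 in that fit. Of 12 genes of eosinophils, basophils and mast cells the factor Gata2 was called higher (0.64), but not without PT replicate 2 (0.57), and in 2 of the 6 fits with 1 array left out. Of 11 dendritic cell genes Batf3 was called higher with all arrays, while Tcf4, a factor of plasmacytoid dendritic cells, was called lower without PT replicate 2 (-0.71). With all arrays 0.726% of all genes were called higher.

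**Figure D5:**
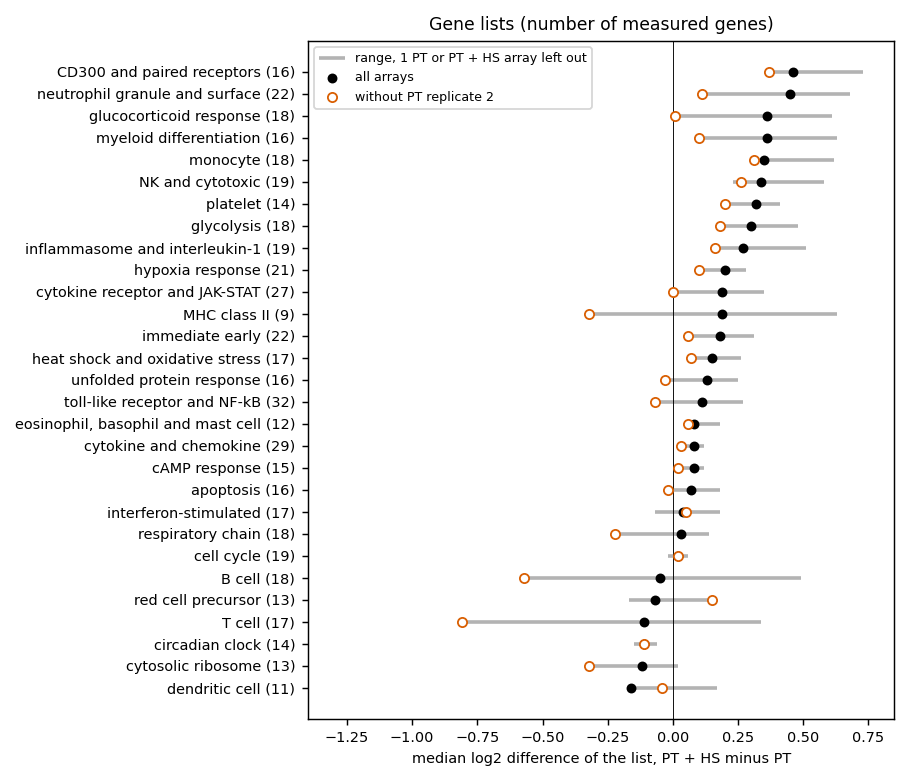
Median log2 difference between PT + HS and PT for 29 gene lists, with all arrays as black points, without PT replicate 2 as open circles and the range with any one of the 6 arrays left out as grey bars. Bars that cross 0 include those of the T-cell, B-cell, MHC class II, dendritic cell, red cell precursor, and toll-like receptor and NF-kB lists. Those of the interferon, unfolded protein response, apoptosis, cell cycle, ribosome and respiratory chain lists cross 0 as well. Bars that stay above it include those of the paired receptor, monocyte, NK, platelet, neutrophil, glycolysis, hypoxia and inflammasome lists.

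Of the 8 genes per direction with the largest differences and no overlap without PT replicate 2, most were not among those named with all arrays. On the lower side Rbis, a ribosome assembly factor, had 5.90, 4.26 and 6.52 in PT and 4.43, 4.68 and 4.30 in PT + HS, so that PT replicate 2 lay below the shock animals while the others lay above. Its difference was -1.74 without that array (adjusted p = 0.271 from limma) and -1.09 with it. Crls1, the cardiolipin synthase, differed by -1.54 (adjusted p = 0.271) and by -0.99 with all arrays, with 5.52, 3.95 and 5.68 in PT and 4.15, 4.17 and 3.86 in PT + HS. P2ry10, a lysophospholipid receptor of lymphocytes, had 8.04, 4.24 and 9.01 in PT and 6.18, 7.51 and 6.80 in PT + HS, and its difference went from -0.27 to -1.70. Zfp266, Fkbp3, Gm8369, Rbm15 and Prpf39 differed by -1.68, -1.68, -1.54, -1.52 and -1.49 without that array. On the higher side Naip2, Tab1 and Lpl were joined by Fbxw9 (1.10), Cnfn (1.08), Nav1 (1.05), Oasl2 (1.04) and Fbxw19 (1.04). Oasl2, an interferon-stimulated gene, had 6.38, 8.30 and 6.48 in PT and 7.80, 7.27 and 7.34 in PT + HS, where PT replicate 2 was the highest array.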

How the data were processed

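RNA of whole blood was measured on 9 arrays of 9 animals. The deposited log2 values were made by the authors with robust multiarray average (background correction, quantile normalization, 1 summary per probe set), so that background and scaling are theirs. The array type in the study's methods is not the one to which the deposited probe set names belong, and the annotation of the latter was used. Of 45101 probe sets, 34958 carried exactly 1 symbol, and 34754 of these were matched to RefSeq by Entrez ID. Each of 18194 genes was represented by whichever of its probe sets had the highest mean, with no filter on low values. limma 3.58.1 in R 4.3.3 was fitted to all 9 arrays with a mean per group, two-sided, with Benjamini-Hochberg adjustment over all genes. The number of arrays limits the precision. The members and lists were chosen with earlier results of these data known, so that no set test was made. Genes of lists that were called, genes called with every array left out in turn, and up to 12 per direction with the largest difference and no overlap (8 without PT replicate 2) are named. The fit was tested on simulated data. Alternatives were the methods' t-test, other arrays, weights, scaling, filters, probe set choices, a replicate block, a red cell covariate and a 2-fold threshold. No batch is given in the sources used here.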

Additional observations from a re-analysis of the deposited data

How the results depend on the processing

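The number of genes past the thresholds, 204 with all arrays, ranged from 187 to 855 with 1 array left out, the lowest without Ctrl replicate 1 or 2 and the highest without PT replicate 2. It was 76 with the methods' t-test, 877 with array weights (364 higher, 513 lower), 132 for genes above the median level, 103 where the probe sets of a gene were averaged, 354 for every probe set with 1 symbol, 13 at a 2-fold threshold and 730 with quantile normalization repeated and without PT replicate 2. The other alternatives gave 178 to 295 calls. No gene had an adjusted p under 0.05 in any of them. The replicate number gave 264 calls as a block (175 higher, 89 lower). Same-numbered PT and PT + HS animals deviated from their groups with correlations of 0.061, -0.115 and -0.043. With so few animals these values cannot decide whether the numbers pair the animals. Of 60 named genes called with all arrays none changed its sign in the settings where it was tested; among genes above the median level 42 kept their call, 2 lost it and the others were not tested. The calls kept were 40 without PT + HS replicate 1, 40 with array weights, 43 without PT replicate 2, 29 with the t-test and 31 with averaged probe sets. The 60 genes were chosen by their calls on the same arrays. Among them were the 30 genes whose call held with any one PT or PT + HS array left out. These counts and signs are therefore no independent evidence. Of all 204 called genes 109 kept the call without PT replicate 2. Where a call was lost, the cause was not tested.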
